A study of Caenorhabditis elegans with 2 samples.

Results

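The 10 genes described here, unc-86, pag-3, zag-1, ser-2, zig-1, zig-2, zig-3, zig-4, zig-5 and zig-8, are regulators and markers of the BDU interneurons and of interneurons in the worm tail. They were taken by name from a list, and all 10 were found among the 19985 protein-coding genes of the annotation. The experiment was a chromatin immunoprecipitation with sequencing of the LIM homeobox protein CEH-14 in C. elegans of strain OP315, using whole hermaphrodites at the late embryonic stage, 5 hours after synchronization by egg bleaching. A stable transgenic line carried CEH-14 with GFP and FLAG tags at its C-terminus, chromatin was sonicated, and the tagged protein was precipitated with an antibody against GFP. Both replicates, labelled as biological, form 1 group, so that conditions could not be compared. A control experiment named in the labels was not analysed here. The antibody label gives ceh-14, while the description gives an antibody against GFP.

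The BDU neurons are a pair of interneurons, each the lineage sister of an ALM touch receptor neuron. Both sisters make UNC-86, a POU homeodomain protein. UNC-86 is known to act with the LIM homeodomain protein MEC-3 in touch receptor neurons, and with PAG-3, a zinc finger protein of the Gfi family, in BDU. ZAG-1 is a ZEB-type zinc finger and homeodomain protein of many neurons, and SER-2 is a receptor for tyramine. The zig genes encode small immunoglobulin-domain proteins, several of them made by the tail interneuron PVT, and are known for keeping axons in place in the ventral nerve cord. CEH-14 is itself a regulator of BDU and of several tail interneurons.

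Binding is given by 4 lists of entries in ce11 coordinates. The first holds 1681 peaks that passed an irreproducible discovery rate (IDR) threshold, which asks whether replicates order their peaks alike. The pooled list holds 21766 entries called on both replicates together, background regions included, and the lists of replicate 1 and replicate 2 hold 21217 and 19577. Entries were ranked by the authors' signal value, from 1 for the strongest, and the IDR peaks are the 1681 strongest pooled entries. The signal scale differs between lists, so that only ranks are set side by side across them. An entry was counted at a gene when its summit was at most 1000 bases from any annotated start of the gene (near a start), or anywhere from 5000 bases upstream through the gene body (the wide window). Read numbers are not in the lists, and the depth behind each value is unknown.

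The sequences at 7 summits are shown for the strongest entries of unc-86, pag-3, zag-1, ser-2 and zig-8 and for entries with a LIM homeodomain core near starts of unc-86 and zig-8. They are given as 101 bases centred on the summit of a pooled entry, 5′ to 3′, read from the RefSeq WBcel235 genome (ce11). The summit at ser-2 lies on a transfer RNA gene, whose bases are in capitals, on the plus strand, that of the transfer RNA gene (chrX:15297448-15297548). In the others the strand is that of the named gene, minus for unc-86 and pag-3 and plus for zag-1 and zig-8, and capitals mark every match, on either strand, to TAATTA or TAATTG (cores that LIM homeodomain proteins bind), ATGCAT (a POU-type site), CACCTG (the core of ZEB-type sites) or GAGAGA. They are the entry in an intron of zag-1 (chrIV:3859271-3859371), those upstream of unc-86 (chrIII:8218359-8218459) and in its first intron (chrIII:8215273-8215373), that upstream of pag-3 (chrX:14955109-14955209), and those in an intron of zig-8 (chrIII:13127519-13127619) and at its start (chrIII:13119652-13119752). The strongest entries of zag-1, unc-86 and zig-8 held none of these motifs and are all in lower case. No sequence is shown for zig-1.
ser-2, intron: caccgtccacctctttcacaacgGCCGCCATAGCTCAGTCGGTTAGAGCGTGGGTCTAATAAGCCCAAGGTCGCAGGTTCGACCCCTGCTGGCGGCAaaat
zag-1, intron: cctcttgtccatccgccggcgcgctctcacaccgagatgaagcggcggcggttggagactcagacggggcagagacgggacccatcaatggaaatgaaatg
unc-86, upstream: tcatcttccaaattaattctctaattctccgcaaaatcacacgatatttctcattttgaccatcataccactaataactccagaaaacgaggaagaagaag
unc-86, intron: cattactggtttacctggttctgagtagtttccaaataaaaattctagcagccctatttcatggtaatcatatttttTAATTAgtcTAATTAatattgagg
pag-3, upstream: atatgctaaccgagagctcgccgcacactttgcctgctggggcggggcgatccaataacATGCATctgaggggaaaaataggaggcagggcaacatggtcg
zig-8, intron: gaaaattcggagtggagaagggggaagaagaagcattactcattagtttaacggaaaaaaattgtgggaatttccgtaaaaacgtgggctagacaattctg
zig-8, start: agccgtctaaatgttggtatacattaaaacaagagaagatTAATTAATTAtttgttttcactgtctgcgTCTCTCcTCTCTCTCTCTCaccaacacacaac

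CEH-14-GFP peaks were met at zag-1, ser-2 and zig-1, weaker entries at unc-86, pag-3 and zig-8, and little or nothing at zig-2, zig-3, zig-4 and zig-5. An IDR summit lay near a start at 2 of the 10 genes, ser-2 and zig-1, where 6.82% of all protein-coding genes had one. In the wide window the count was 3 of 10, with zag-1 added, where 13.7% of all genes had one. Pooled entries lay near a start at 7 of 10 genes (all genes 42.1%) and in the wide window at 8 of 10 (all genes 70.3%). The genes were chosen with earlier results of these data known, and with 10 members no test of these counts was made. Chromatin came from whole embryos, so a gene bound in a few cells cannot be told apart from a gene not bound.

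**Figure D1:**
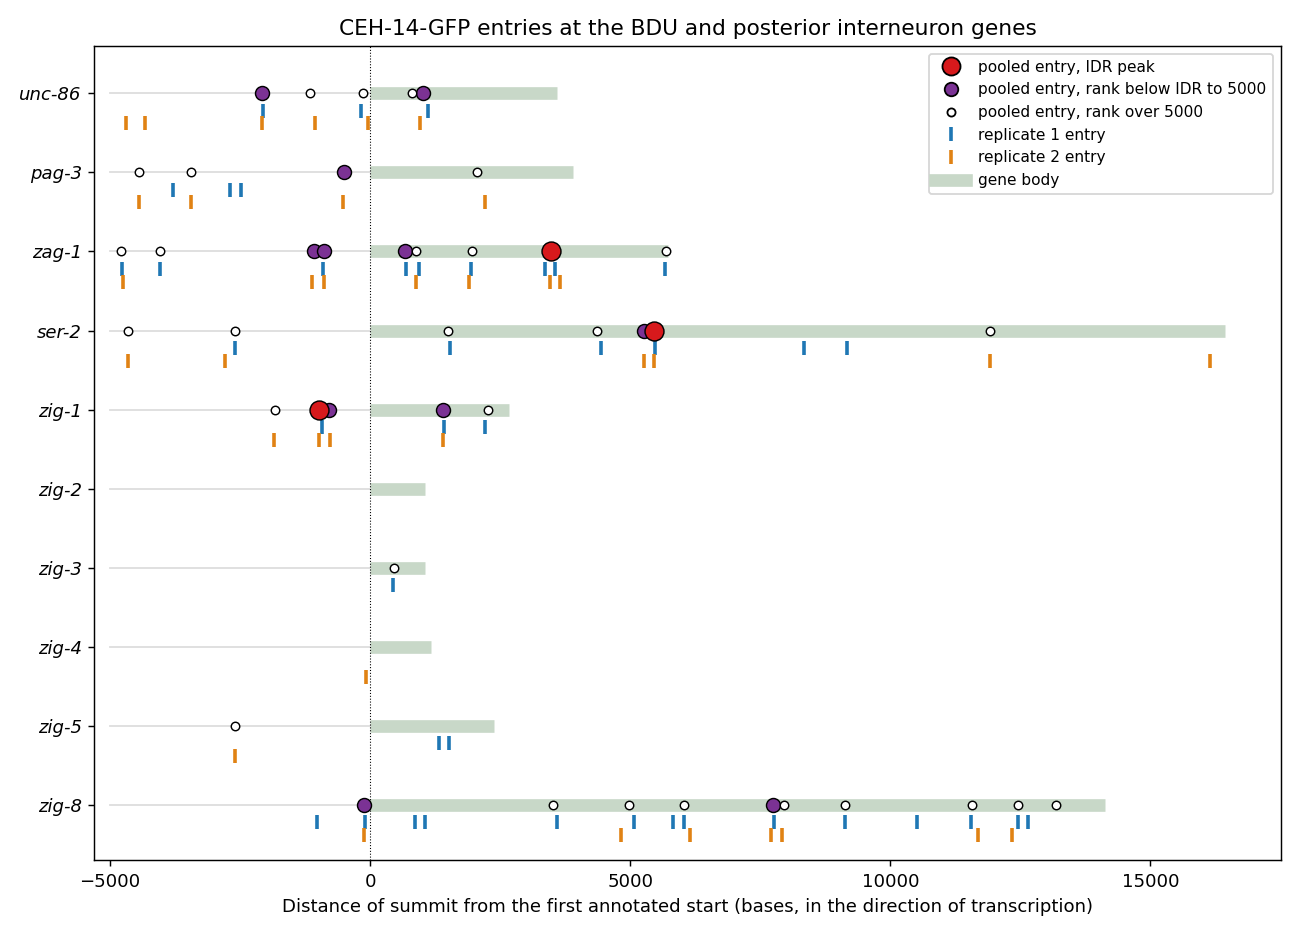
Entries at each gene by the distance of their summit from the first annotated start, in bases along the direction of transcription, with the gene body as a pale bar. Circles are pooled entries by rank class and ticks are the entries of each replicate. The 3 IDR peaks lie in the bodies of zag-1 and ser-2 and upstream of zig-1, and zig-2 has no entry in any list.

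Among the regulators, zag-1 (IV, 3855843 to 3861569) held the most entries. Its IDR peak, at 3859093 to 3859548, ranked 946 with a signal value of 97.9. The summit lay inside the gene, 3478 bases downstream of the start, in intron 4 of 6, which is 1700 bases long. It was therefore missed by the count near starts. The replicates ranked it differently. The strongest overlapping entry had rank 491 in replicate 2 and 2759 in replicate 1. Each replicate had a second entry overlapping the peak, with rank 3711 in replicate 2 and 8225 in replicate 1.

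A second cluster of zag-1 entries lay just upstream. Pooled entries at 1083 and 883 bases before the start ranked 2245 and 2931, with signal values of 63.7 and 55.4. The same region gave the strongest zag-1 entry of replicate 1, with rank 2127, and an entry of rank 1695 in replicate 2. Both ranks are outside the 1681 strongest entries of each replicate. The second of these summits lay in exons of 2 annotated non-coding RNA genes on opposite strands, F28F9.10 and F28F9.16. After the start, an entry ranked 3726 lay 673 bases downstream in the first intron, and one ranked 5266 lay 884 bases downstream in a coding exon. In all, zag-1 had 9 pooled entries in its wide window, more than 98.8% of protein-coding genes. Overlapping entries were counted singly, for zag-1 as for all genes. Those ranked 2245 and 2931 overlapped, as did those ranked 3726 and 5266, so the 9 are not all separate sites. Since longer windows have more room, the genes were also split by window length into 5 classes of nearly equal size. In the longest class, with windows from 9319 to 107756 bases and a median of 11769, 94% of genes had fewer entries than zag-1.

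At unc-86 (III, 8212740 to 8216336, minus strand, with 2 annotated starts) no IDR peak was met. The strongest of its 5 pooled entries ranked 1940, with a signal value of 68.1, just below the IDR peaks, of which the weakest had 72.97. It had rank 1917 in replicate 1 and 2865 in replicate 2, with summits 5 and 4 bases from the pooled one. Its summit lay 2073 bases upstream of unc-86, but only 190 bases from the start of C30A5.16, a protein-coding gene on the other strand, and within an intron of that gene. The nearest start is therefore not that of unc-86.

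The entries near the starts of unc-86 itself were weaker and less even between replicates. The first, ranked 4693, lay in the 1475-base first intron, 670 bases upstream of the second start. Among the pooled entries of unc-86 it is the only one with a LIM homeodomain core, 2 copies of TAATTA within 50 bases of the summit. It ranked 3538 in replicate 2 and 13063 in replicate 1. The second, ranked 5571, lay 139 bases upstream of the first start, in the non-coding RNA gene C30A5.11, and the order was the opposite, with rank 3021 in replicate 1 and 13246 in replicate 2. The last, also in the first intron, ranked 21041, near the end of the list.

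The entry upstream of pag-3 (X, 14950752 to 14954648, minus strand) was seen in 1 replicate. In replicate 2 it had rank 1593 and a signal value of 42.9, within the 1681 strongest entries of that list. Replicate 1 had no entry overlapping it, and its nearest summit was 1978 bases away. The pooled entry ranked 2834, with a signal value of 56.3, and lay 511 bases before the only annotated start, in the non-coding RNA gene F45B8.13. Of the 3319 pooled entries ranked 1682 to 5000, 96.6% overlapped an entry of replicate 1, so such an absence was uncommon at that rank. A further entry, 3434 bases upstream of pag-3, ranked 5518 and overlapped entries of both replicates, ranked 8236 and 3788. The remaining 2 pooled entries ranked 19905 and 20794.

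The tyramine receptor gene ser-2 (X, 15286533 to 15302963, minus strand) is 16431 bases long with 5 annotated starts. Its IDR peak, at 15297270 to 15297725, ranked 1039 with a signal value of 93.6, and was within the 1681 strongest entries of both replicates, with rank 1554 in replicate 1 and 823 in replicate 2. The summits in the replicates lay 15 and 2 bases from the pooled summit. The peak lay 725 bases downstream of the nearest ser-2 start, in an intron of 11006 bases. Its summit fell within C02D4.t1, an isoleucine transfer RNA gene of 74 bases at 15297471 to 15297544, on the strand opposite to ser-2.

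Some peaks of this experiment lay at short RNA genes, and the ser-2 peak is one of those. Of 612 nuclear transfer RNA genes, 152 (24.8%) had an IDR summit within 200 bases, with a median best rank of 665 and a range from 28 to 1657. The 74 bases of C02D4.t1 occur in 20 exact copies in the genome. An IDR summit lay within 200 bases of 6 of these copies and a pooled summit within 200 bases of 12, so the identical copies were not all met alike. How reads from identical copies were placed is not given in the sources used here. With entries within 200 bases of a transfer, small nucleolar or small nuclear RNA gene left out, 1465 of the 1681 IDR peaks remained. Then ser-2 had no IDR peak, and the count near starts was 1 of 10, zig-1 alone (all genes 6.33%).

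Away from the transfer RNA, ser-2 held weaker entries. One pooled entry, ranked 4729, overlapped the IDR peak and lay 156 bases from the transfer RNA gene. An entry 116 bases after the start at 15298708, in an untranslated region, ranked 13812 in the pooled list and 3632 in replicate 1, and overlapped nothing in replicate 2. An entry in the large intron ranked 7556, with rank 2663 in replicate 1 and again no match in replicate 2. With 7 pooled entries in 21431 bases, ser-2 had more than 88.2% of the genes in the longest class. The median window of that class was 11769 bases, so window length is only partly matched for ser-2.

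The zig genes divided by how many entries they held. Most entries were at zig-1 and zig-8, and 2 pooled entries in all at zig-2, zig-3, zig-4 and zig-5. The zig-1 gene (I, 9847406 to 9850082) had the strongest peak of the 10 genes, at 9846196 to 9846651, with rank 719 and a signal value of 110.8. It was met in both replicates, with rank 565 in replicate 1 and 1038 in replicate 2. The summit lay 982 bases upstream of the only zig-1 start, just within the 1000-base limit, in intergenic sequence whose nearest protein-coding start was that of zig-1. The next nearest was that of nhr-62, 2928 bases away, and the nearest short RNA gene was 37272 bases away.

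At the zig-1 summit a GAGAGA match lay within 50 bases and no TAATTA or TAATTG. A second pooled entry overlapped the first, 783 bases upstream, with rank 4146, and also held GAGAGA. Entries in introns 4 and 6 of zig-1 ranked 4940 and 9559. With 5 entries in a window of 7677 bases, zig-1 had more than 93% of the genes of similar window length (7490 to 9318 bases).

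The zig-8 gene (III, 13119820 to 13133938) had 10 pooled entries, the most of the 10 genes, and no IDR peak. Its strongest entry narrowly missed: it ranked 1705 with a signal value of 72.3, where the weakest IDR peak, ranked 1681, had 72.97. It lay in intron 2, 7749 bases from the start, and was met in both replicates, with rank 1848 in replicate 1 and 2109 in replicate 2. The next entry lay at the start, 118 bases upstream, with rank 2314 and a signal value of 62.7. That entry differed between replicates, with rank 1469 in replicate 2 and 11214 in replicate 1, though their summits lay 0 and 17 bases from the pooled one. It held both TAATTA and GAGAGA within 50 bases of the summit. The other 8 entries lay in introns and ranked from 5732 to 20273. In the longest class of windows, 95.6% of genes had fewer entries than zig-8. Its window of 19119 bases was also longer than the median of that class, 11769 bases.

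The 4 shortest windows among the members were those of zig-2, zig-3, zig-4 and zig-5, from 6059 to 7390 bases. No list had an entry in the wide window of zig-2 (X, 12340377 to 12341438), and the nearest pooled summit was 3373 bases from its start. At zig-3 (X, 7930750 to 7931808) a single entry lay in a coding exon, 463 bases after the start, with pooled rank 6129, rank 3825 in replicate 1 and no match in replicate 2. At zig-4 (X, 7925434 to 7926595) replicate 2 alone had an entry, 72 bases upstream of the start, with rank 18792 of 19577. At zig-5 (III, 10951119 to 10953508, minus strand) the pooled entry, 2594 bases upstream, ranked 13591, and overlapped a replicate 2 entry of rank 17073 and none of replicate 1. Replicate 1 had entries of its own within zig-5, 1316 and 1526 bases after the start, ranked 13144 and 15995.

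These genes lay in stretches with few entries. Neighbouring pooled summits around the start of zig-3 and around that of zig-4 were the same pair, 15105 bases apart, and around zig-5 they were 15247 bases apart. The median gap between neighbouring pooled summits was 2435 bases, and 94.6% and 94.7% of gaps were shorter. Longer gaps cover more positions, so the gap around any start tends to exceed this median. The shares of shorter gaps given here are therefore a description, without a comparison to the gaps around all gene starts. Around zig-2 the gap was 9974 bases, longer than 88.6% of gaps, and in replicate 2 alone it was 22520 bases, longer than 97.1% of gaps in that list. In replicate 1 alone the gap around zig-5 was shorter, at 7445 bases, longer than 81.4% of gaps in that list. An empty window was not rare at this length: in the length class from 6056 to 6663 bases, which holds zig-2, zig-3 and zig-4, 40.4% of genes had no pooled entry. The ceh-14 gene itself lay in a gap of 51725 bases, longer than 99.8% of gaps, and had no entry. The line carried a ceh-14 transgene, whose copy number is not given in the sources used here. Its effect on entries at this gene was not tested, so the gap cannot be read as absence of binding.

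**Figure D2:**
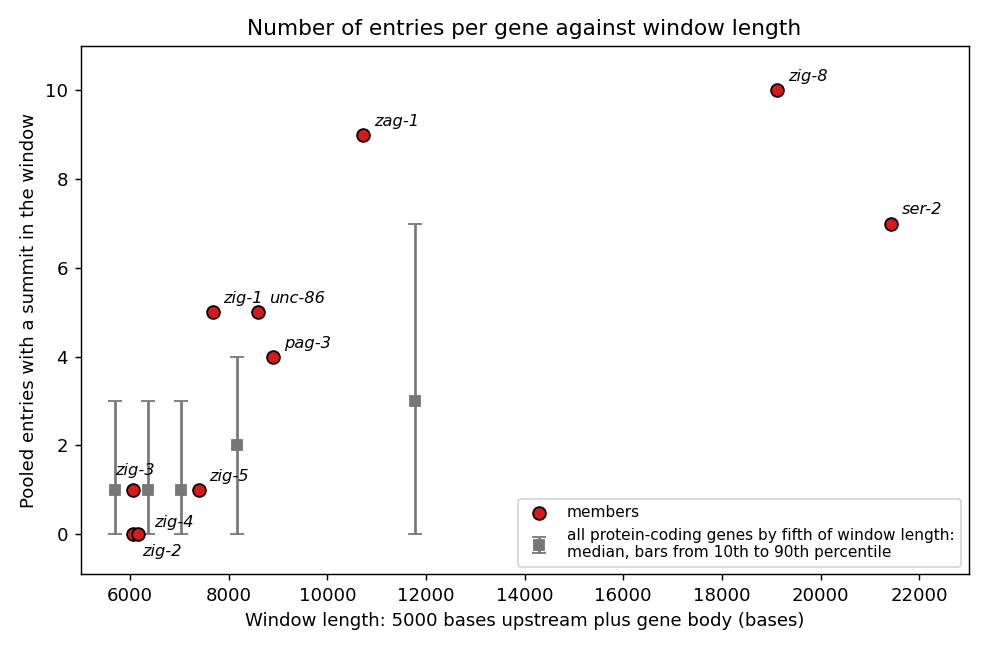
Number of pooled entries in the wide window of each gene against the length of that window in bases. Overlapping entries are counted singly, so that a count can exceed the number of separate sites. Red circles are the 10 genes, and grey squares with bars give the median and the 10th to 90th percentile of all protein-coding genes in each of 5 classes of window length. The counts of zag-1 (9), zig-8 (10), unc-86 (5) and zig-1 (5) lie above the bars of their classes, those of pag-3 (4) and ser-2 (7) are level with the top of the bar, and those of the other zig genes lie within it.

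Over the 10 genes the wide windows held a median of 4.5 pooled entries, against 1 for all protein-coding genes. The windows were also longer, with a median of 8137 bases against 7026. Of the 42 pooled entries, 3 (7.14%) were IDR peaks, where 7.72% of the whole list were. Another 11 (26.2%) ranked from 1682 to 5000, where 15.2% of the whole list did. These 11 entries lay at zag-1 (3), unc-86, zig-1 and zig-8 (2 each), and pag-3 and ser-2 (1 each). They are not all separate sites. The zig-1 entry ranked 4146 and the ser-2 entry ranked 4729 overlapped the IDR peaks of those genes. The zag-1 entries ranked 2245 and 2931 overlapped each other.

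The replicates gave the same number of genes with any entry, but different genes among the strongest. In the wide window 8 of 10 genes had an entry in replicate 1 (all genes 70.9%) and 8 of 10 in replicate 2 (all genes 69.5%). Replicate 1 had an entry at zig-3 and none at zig-4, and replicate 2 the reverse. Among the 1681 strongest entries of replicate 1, 2 genes had one in the wide window, ser-2 and zig-1 (all genes 13.4%), and the same 2 near a start (all genes 6.63%). Among those of replicate 2, 5 genes had one in the wide window, pag-3, zag-1, ser-2, zig-1 and zig-8 (all genes 13.5%), and 4 of these, all but zag-1, near a start (all genes 6.59%). With 2 replicates the spread behind this difference is poorly estimated.

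**Figure D3:**
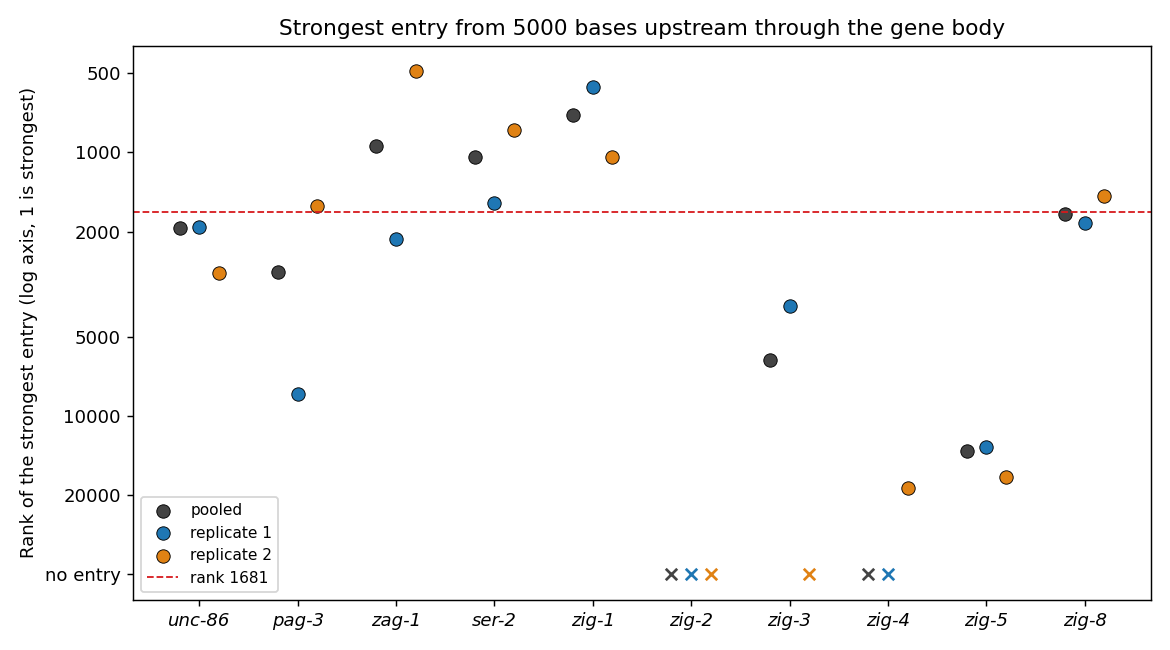
Rank of the strongest entry of each gene in its wide window in the pooled list and in each replicate, on an inverted log axis, with crosses where a list has no entry. The dashed line marks rank 1681. Replicate 2 ranks pag-3 (1593), zag-1 (491) and zig-8 (1469) above the line, where the ranks of replicate 1 fall below it.

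Each entry was then followed from the pooled list into the replicates. All 3 IDR peaks of the members were met in both at a reciprocal overlap of 50%, as were 1539 of all 1681 IDR peaks (91.6%). The IDR peaks are the 1681 strongest pooled entries, and the pooled list was called on both replicates together. Overlap with the replicate lists is therefore no independent support for a peak. By an overlap of at least 1 base, 1671 of all 1681 IDR peaks were met in both. When summits had to lie within 50 bases, only the ser-2 peak was met in both, where 70.2% of all IDR peaks were. The replicate 1 summits nearest to the zag-1 and zig-1 summits lay 84 and 64 bases away. Of the 42 pooled entries, 33 were met in replicate 1 by an overlap of at least 1 base, 33 in replicate 2, and 25 (59.5%) in both, against 50.7% of the whole list. This share depends on rank. Of member entries ranked 1682 to 5000, 90.9% were met in both (all entries 93.9%). Of those ranked over 5000, 42.9% were (all entries 37.3%). For pag-3, 3 of 4 entries were met in replicate 2 alone, and for zag-1, 7 of 9 were met in both.

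**Figure D4:**
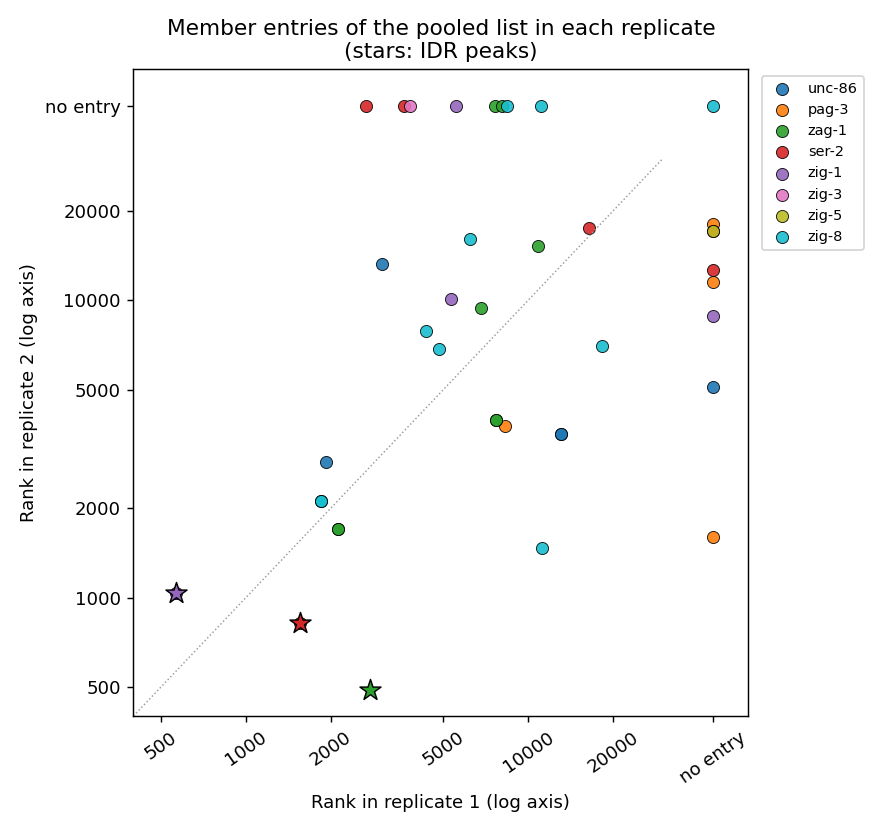
Ranks of the 42 pooled entries of the members in replicate 1 and replicate 2, on log axes, taking the strongest overlapping entry, with entries that have no match at the margin. Stars are the 3 IDR peaks and the dotted line marks equal rank. The zig-8 entry at rank 11214 in replicate 1 and 1469 in replicate 2 and the pag-3 entry with no match in replicate 1 and rank 1593 in replicate 2 lie far to the right of the line.

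Of the 42 pooled summits 19 (45.2%) lay in introns, where 31% of all pooled summits did. Of these 19, 9 were in zig-8, and at the other genes 10 of 32 summits (31.2%) lay in introns, a split made after the values were seen. Intergenic sequence held 12 (28.6%, all entries 38.7%), exons of non-coding genes 5 (11.9%, all entries 5.25%), coding exons 4 (9.52%, all entries 18.8%) and untranslated regions 2 (4.76%, all entries 6.21%). The 5 non-coding exons were those of the transfer RNA in ser-2 and of short annotated non-coding RNA genes next to unc-86, pag-3, zag-1 and ser-2. For 32 of the 42 summits the nearest protein-coding start was that of the gene described.

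The sequence around the summits was searched on both strands for 6 motifs, within 50 bases on each side. Of the 42 pooled summits, TAATTA was met at 3 (7.14%, all pooled entries 8.64%), at unc-86, zig-8 and zag-1. TAATTG, which shares its first letters with TAATTA and can overlap it, was met at 2 (4.76%, all entries 8.57%), both in zig-8. ATGCAT was met at 2 (4.76%, all entries 2.07%), upstream of pag-3 and in zig-8, and CACCTG at 2 (4.76%, all entries 3.24%), both upstream of zag-1. The letters AATC, the core that Gfi-type zinc fingers bind, were met at 20 (47.6%, all entries 59.4%), and GAGAGA at 5 (11.9%, all entries 11.5%).

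At the 3 IDR summits neither LIM homeodomain core was met, where 5.89% of all IDR summits held TAATTA and 6.96% TAATTG. A match to GAGAGA was met at 1 of the 3, that of zig-1 (all IDR summits 25.7%). The zag-1 and ser-2 summits were rich in GC, with 61.4% and 58.4%, against a median of 48.5% over all IDR summits, and the zig-1 summit had 44.6%. A match says only that the letters lie in the window, and with 3 summits these shares are a description.

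Genes related to the 10 by family or by cell were read in the same way, from lists that overlap none of the members. Of 13 genes of BDU fate and wiring, 6 had an IDR summit in the wide window (all genes 13.7%) and 3 of them near a start (all genes 6.82%). Those near a start were vang-1, a planar polarity gene, with rank 729, sax-7, an L1-type adhesion gene, with rank 763, and lin-17, a Frizzled receptor gene, with rank 1258. Those farther from a start were cam-1, a ROR-type receptor tyrosine kinase gene, with rank 580, unc-9, an innexin gene, with rank 1225, and unc-53, which guides cell and axon migration, with rank 1404. Windows in this list were long, with a median of 13194 bases, and in the longest class of all genes 23% had an IDR summit. The neuropeptide genes nlp-1, nlp-15 and flp-10 had none, and their best pooled ranks were 19788 and 20430, with no entry at flp-10.

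A list of 10 markers and regulators for the touch receptor neurons, the sister fate, had no IDR summit in any wide window, where 13.7% of all genes had one. It held mec-3, mec-4, mec-7, mec-10, mec-12, mec-17, mec-18, alr-1, egl-44 and egl-46, which do not all mark that fate. The strongest entry lay in the wide window of mec-4, with rank 2686, but nearest to the start of another gene, cas-1. The next lay 51 bases upstream of mec-12, an alpha-tubulin gene, with rank 2935. Of 13 genes of tail interneurons, 4 had an IDR summit in the wide window (all genes 13.7%). The Hox genes nob-1 and php-3 share a peak of rank 659 nearest to a start of nob-1, so they are not separate cases. The others were the Hox gene egl-5 with rank 1087 and the homeobox gene cog-1 with rank 1132. All of these summits lay over 1000 bases from a start. Of 14 other amine receptor genes, ser-3 alone had one in the wide window (all genes 13.7%), 297 bases upstream of a start with rank 1492. Its relatives tyra-2 and tyra-3 and the tyramine-gated channel gene lgc-55 had none, the strongest entry being at tyra-3 with rank 2073.

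None of zig-6, zig-7, zig-9, zig-10, zig-11 and zig-12 had an IDR summit in the wide window (all genes 13.7%), and each had between 1 and 4 pooled entries. The strongest were at zig-11, with rank 3520, and zig-10, with rank 3702, and both lay nearest to the start of another gene. The other POU genes ceh-6 and ceh-18 had no IDR summit, and ceh-18 had an entry in an intron of rank 4224.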

How the data were processed

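The authors' lists are narrowPeak files in ce11, per the file headers and the sample records deposited beside them: IDR peaks, a pooled relaxed list, and a relaxed list per replicate. Those records trace each relaxed list to alignments and to 1 further file of unstated kind. Which aligner, peak caller and IDR threshold served is not given in the sources used here. Signal values were deposited by the authors, differ in scale between lists, and served here for ranking within a list. Gene models were those of Ensembl release 115 (WBcel235) and sequence the RefSeq copy of that assembly. No entry passed a chromosome end of it. Coordinates are 1-based.

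Counts were computed in Python 3.11.15 with pandas 2.3.3 and tested on simulated data. Intron numbers refer to the longest transcript. The 10 genes, related lists, motifs and alternatives were chosen with earlier results of these data known, and no test was made. Named are the 10 genes with their IDR peaks, entries near a start and strongest entry, some weaker entries as values, the genes nearer to a summit, and related genes with an IDR summit. The related genes without one, and the choice of 7 sequences, were named after their values were seen. Alternatives covered window sizes, the strongest 840 IDR peaks or 10883 pooled entries, each replicate alone, entries near short RNA genes, assignment to the nearest start, the matching rule and the motif width.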

Additional observations from a re-analysis of the deposited data

How the results depend on the processing

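The counts at starts and in wide windows depended on the threshold and on the replicate. The share of all genes moved with each setting and is given in brackets. With the strongest 840 IDR peaks, 1 gene, zig-1, had a summit near a start (all genes 3.74%) and 1 in the wide window (all genes 7.53%). Near starts the IDR count of 2 (all genes 6.82%) became 1 without entries near short RNA genes (6.33%) and 0 at 500 bases (5.12%). It was 2 at 2000 bases (9.57%) and 3 with the single nearest start (7.32%), which added zag-1. Taking 1 replicate alone gave 2 to 4 genes near a start (6.59% to 6.63%) and 2 to 5 in the wide window (13.4% to 13.5%). The higher member counts were those without replicate 1. The pooled count near starts was 4 at 500 bases (30.5%), against 7 (42.1%), and 6 to 8 under its other alternatives (27.1% to 56.7%). That in the wide window was 7 or 8 throughout (33.6% to 70.9%). Of the 3 IDR peaks, 1 was met in both replicates when summits had to lie within 50 bases. With 100 bases on each side, TAATTA was met at 6 of 42 pooled summits, AATC at 31 and GAGAGA at 9, with all pooled entries at 15.2%, 82.2% and 20.1%. Of the ranks in single replicates, 4 of 15 moved when the entry nearest to the pooled summit was read. No paired analysis was possible because there is 1 group. Read depth is unknown, and 2 replicates estimate the spread poorly.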
